A study of Rattus norvegicus with 24 samples.

Results

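The genes of the proteasome and of its inducible form, the immunoproteasome, were followed in rat kidney under a diet high in salt and fat. They were taken as every probe set whose single gene symbol starts with Psm, then a letter between a and g, then a digit. This gave 46 probe sets of 15923 on the array, for 43 genes of 10411 with a symbol of their own. All 46 passed the filter on low signals that left 10208 probe sets for testing, so none was lost. The filter needed 6 of 24 arrays, the size of 1 group, so passing it does not show a signal above its level in every group. The 43 genes comprised 13 subunits of the constitutive core (7 alpha and 6 beta), 17 of the regulatory particle (5 ATPases and 12 others, chaperones of its assembly included), 5 inducible genes, and 6 other activators, inhibitors and assembly factors. The remaining 2, Psmc3ip and Psme3ip1, share the letters but are not subunits. Psmb6 and Psme3 lay on probe sets with several symbols (1 and 4 of them), and were not analysed here.

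The animals were male SHR-SP rats, an inbred stroke-prone strain with genetic hypertension, and every group carried that background. No normotensive strain was compared. From 11 weeks of age they were given chow with 24.5% fat together with drinking water holding 1% NaCl (the high salt and fat diet, with salt-fat kidneys), or powdered chow and plain water (the normal diet, with normal-diet kidneys), for 2 or 8 weeks. Kidneys were thus collected at about 13 and 19 weeks of age. Each of the 4 groups had 6 animals with 1 array each, so p-values measure the spread between animals. Salt and fat were given together and cannot be told apart, and the normal diet was a different chow. RNA came from pulverised whole kidney, and the 18 proximal tubule markers on the array all passed the filter.

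The values are MAS5 signals, a linear measure of probe brightness that differs between probe sets with their probes, so levels are compared only within a gene. Median signals per array were 68.7 to 78.7. The number of arrays, 6 per group, limits the precision. At 8 weeks, normal-diet arrays 1 and 2 had a signal of 2.4 and 3.0 at their lowest 1st percentile, against 0.7 to 1.2 on the others, and results that rest on them are also given without them. Differences are of log2(signal + 7.2) with their SE, the high salt and fat diet minus the normal diet. A gene was called when its limma p, adjusted by Benjamini-Hochberg over the 10208 probe sets, was under 0.05.

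The proteasome degrades proteins that carry ubiquitin. A barrel of alpha and beta rings holds the catalytic beta subunits, and a regulatory particle of ATPases and other subunits caps it, binds the ubiquitin chain and unfolds the substrate. In cells exposed to interferon, Psmb8, Psmb9 and Psmb10 are made and take the place of the catalytic subunits Psmb5, Psmb6 and Psmb7 in newly built barrels, which favours peptides that fit class I molecules. Psme1 and Psme2 form an interferon-inducible cap that opens the barrel without ubiquitin. Leukocytes hold much of this form at rest, and kidney tubule cells can be induced to make it.

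After 8 weeks, all 5 inducible genes were higher in salt-fat than in normal-diet kidneys. Of all probe sets tested, 5.63% were called higher and 3.51% lower. Psmb8, the inducible counterpart of Psmb5, had signals of 127.8, 198.6 and 206 (lowest, median and highest of 6) in salt-fat kidneys, against 79.8, 102.4 and 118.6 in normal-diet kidneys. The groups did not overlap, although 1 of the salt-fat arrays, array 2, lay well below the other 5. Its difference was 0.83 ± 0.12 (SE, 1.78-fold, adjusted p = 4.38e-05). Because these are whole-kidney samples, more cells that make a transcript and more transcript per cell cannot be told apart.

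Psmb10, the counterpart of Psmb7, had signals of 90.8, 114.95 and 136 in salt-fat kidneys at 8 weeks, against 57.7, 69.15 and 89.8 in normal-diet kidneys. The groups did not overlap, and the difference was 0.64 ± 0.13 (1.56-fold, adjusted p = 0.00233). Psmb9, the counterpart of Psmb6, had 64.3, 100.95 and 113.5 in salt-fat kidneys, against 41.1, 55 and 66.4 in normal-diet kidneys. Its groups overlapped at their edges, with a difference of 0.69 ± 0.17 (1.61-fold, adjusted p = 0.0118). Psmb9 lay near the filter: its 41.1 on normal-diet array 6 was below that array's filter level of 47.3.

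Both subunits of the inducible cap were higher at 8 weeks as well. Psme1 had signals of 841.5, 928.5 and 1075.1 in salt-fat kidneys, against 647.1, 677.2 and 735.7 in normal-diet kidneys, a difference of 0.48 ± 0.06 (1.39-fold, adjusted p = 1.33e-05). Psme2 had 312, 362 and 389.9 in salt-fat kidneys, against 214.9, 235.45 and 263.4 in normal-diet kidneys, a difference of 0.58 ± 0.09 (1.49-fold, adjusted p = 5.6e-05). Neither gene's groups overlapped. In all, 5 of the 43 genes (Psmb8, Psmb10, Psme1, Psme2 and Psmb4) were higher with no overlap at 8 weeks, against 2.21% of the probe sets tested.

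**Figure D1:**
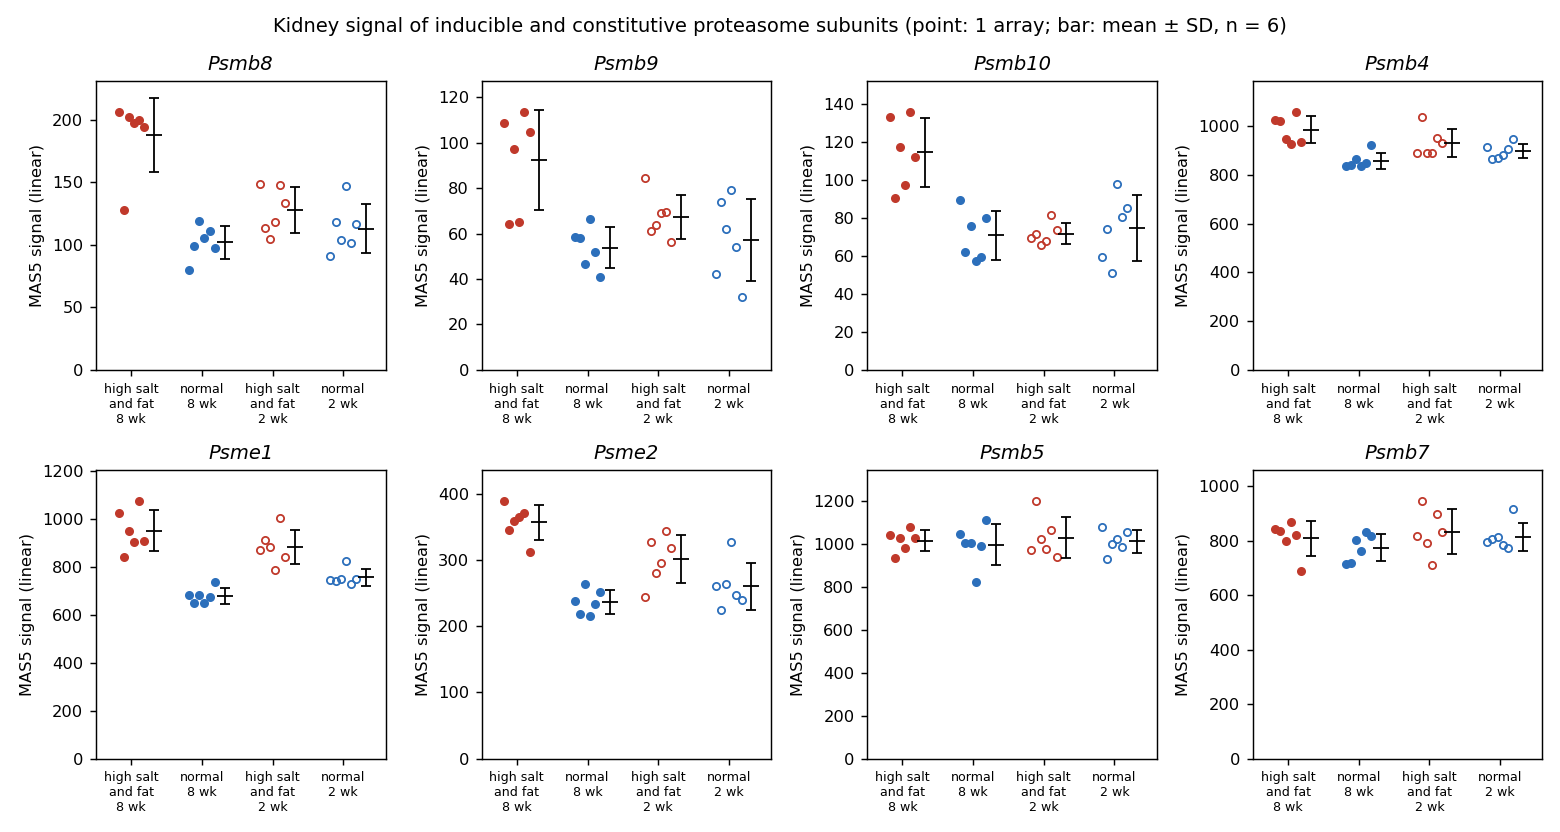
MAS5 signal (linear axis starting at 0) of the 5 inducible genes and of Psmb4, Psmb5 and Psmb7 on each array, for salt-fat and normal-diet kidneys at 8 and at 2 weeks. Points are arrays and black bars the mean and SD (n = 6). The inducible genes sit higher in salt-fat kidneys at 8 weeks (Psmb8 averaged 188 against 102), while Psmb5 and Psmb7 lie at similar levels in the 4 groups.

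At 2 weeks 4.55% of all probe sets were called higher and 4.19% lower, and 1 of the 43 genes was called. This was Psme1, with signals of 786.4, 875.65 and 1002.2 in salt-fat kidneys, against 726.7, 745.35 and 825.5 in normal-diet kidneys. Its groups overlapped and its difference was 0.22 ± 0.06 (adjusted p = 0.0291). This call was lost when arrays were centred on their medians (adjusted p = 0.0584) and in 8 of the 24 fits that left out 1 array: salt-fat arrays 2, 3 and 5 and normal-diet arrays 1, 2, 3, 5 and 6, all at 2 weeks, with differences of 0.18 to 0.22 and adjusted p of 0.0513 to 0.0829.

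The other inducible genes were not called at 2 weeks in the fit of all arrays. Psme2 averaged 302 ± 35.9 in salt-fat kidneys and 261 ± 35.6 in normal-diet kidneys (SD, n = 6 each), a difference of 0.21 ± 0.09 (adjusted p = 0.14). Normal-diet array 4 at 2 weeks had the highest signal of its group for all 5 inducible genes, and without it Psme2 was called (0.27, adjusted p = 0.0408). Leaving out the highest normal-diet array raises the difference by construction, and Psme2 was not called in the other 38 of 39 alternatives. Psmb8 averaged 128 ± 18.5 in salt-fat kidneys and 113 ± 19.6 in normal-diet kidneys, a difference of 0.17 ± 0.12 (adjusted p = 0.426). Psmb9 differed by 0.25 ± 0.17 (adjusted p = 0.401), with 0.12 to 0.35 when single arrays were left out, and Psmb10 by -0.03 ± 0.13 (adjusted p = 0.924). The median difference of the 5 genes was 0.64 at 8 weeks and 0.21 at 2 weeks, beside -0.0015 at 8 weeks and 0.02 at 2 weeks over all probe sets tested.

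Technical measures also moved with diet at 2 weeks. The level of the 18 spike-in control probe sets was 0.30 lower (log2) in salt-fat kidneys, with no overlap (exact two-sided permutation p = 0.00217, adjusted over 4 tests 0.00866), and the log2 ratio of GAPDH 3' to 5' signal was 0.16 higher (exact p = 0.0152, adjusted 0.0303). With the spike-in level as a covariate, Psme1 differed by 0.19 at 2 weeks (adjusted p = 0.167), and with the GAPDH ratio by 0.24 (adjusted p = 0.0835). At 8 weeks the spike-in level differed by 0.23 (adjusted p = 0.0635) and the GAPDH ratio by 0.005 (adjusted p = 0.929), and all 5 inducible genes were called with either as a covariate.

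The size of the diet difference was compared between the times directly. Psmb10 differed by 0.67 ± 0.19 more at 8 than at 2 weeks (adjusted p = 0.145) and Psmb8 by 0.66 ± 0.17 (adjusted p = 0.101). Psme2, Psme1 and Psmb9 differed by 0.37, 0.26 and 0.43 more, and none of the 43 genes was called in the limma fit, beside 0.382% of all probe sets. At an unadjusted p under 0.05 the count was 4 (Psmb8, Psmb10, Psme1 and Psme2), where the background was 11.6%. Without salt-fat array 2 at 8 weeks, which had the lowest Psmb8, the count of calls was 1, Psmb8 (adjusted p = 0.0106). A diet difference called at 8 weeks and not at 2 is therefore not shown to differ between the times for these genes.

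Within the salt-fat kidneys, Psmb10 and Psmb8 rose between 2 and 8 weeks. Psmb10 averaged 115 ± 18.4 at 8 weeks and 71.8 ± 5.62 at 2 weeks, a difference of 0.61 ± 0.13 (adjusted p = 0.0075), and Psmb8 averaged 188 ± 29.6 at 8 weeks and 128 ± 18.5 at 2 weeks, a difference of 0.53 ± 0.12 (adjusted p = 0.0114). The background of higher calls was 2.22%. Psmb9, Psme2 and Psme1 differed by 0.39, 0.24 and 0.11 and were not called, although Psme2 was called with array weights (0.32, adjusted p = 0.0259). Within the normal-diet kidneys, 0 of the 43 genes were called between 8 and 2 weeks (1 at an unadjusted p under 0.05, Psme1, with -0.15), where limma called 0.0392% of all probe sets and 8.51% had an unadjusted p under 0.05. The 5 inducible genes lay between -0.15 and -0.04 there.

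The promoters of the inducible genes are shown because interferon signalling reaches such genes through short motifs near their starts. The windows run from 250 bases before to 50 bases after each gene's start in RefSeq (GRCr8), 300 bases written 5′ to 3′ on the gene's strand, and 41 of the 43 genes had one. The motifs searched on both strands were the interferon-stimulated response element core (GAAA, any 2 bases, GAAA), the gamma-activated site core TTCNNNGAA, and the antioxidant response element core TGACNNNGC that binds Nfe2l1 and Nfe2l2, known regulators of constitutive subunits. Matches are in capitals, and no motif letters overlapped another motif here. Psmb8 lies at chr20:4656982-4657281, minus strand. Psmb9 lies at chr20:4668750-4669049, plus strand. Psmb10 lies at chr19:50743243-50743542, minus strand. Psme1 lies at chr15:33038721-33039020, plus strand. Psme2 lies at chr15:33052702-33053001, minus strand. Psmb5, given as the constitutive counterpart of Psmb8, lies at chr15:32047330-32047629, minus strand.
Psmb8: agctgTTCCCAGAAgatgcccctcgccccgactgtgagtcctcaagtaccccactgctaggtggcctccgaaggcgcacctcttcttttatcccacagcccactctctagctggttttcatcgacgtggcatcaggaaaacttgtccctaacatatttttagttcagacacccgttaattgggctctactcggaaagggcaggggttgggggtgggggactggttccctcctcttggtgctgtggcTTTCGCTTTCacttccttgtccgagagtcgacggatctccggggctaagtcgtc
Psmb9: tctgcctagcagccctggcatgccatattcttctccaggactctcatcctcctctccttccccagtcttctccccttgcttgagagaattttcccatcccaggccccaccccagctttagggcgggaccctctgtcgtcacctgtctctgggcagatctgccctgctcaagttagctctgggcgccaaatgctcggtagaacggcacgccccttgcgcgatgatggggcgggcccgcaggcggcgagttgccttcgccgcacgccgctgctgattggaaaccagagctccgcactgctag
Psmb10: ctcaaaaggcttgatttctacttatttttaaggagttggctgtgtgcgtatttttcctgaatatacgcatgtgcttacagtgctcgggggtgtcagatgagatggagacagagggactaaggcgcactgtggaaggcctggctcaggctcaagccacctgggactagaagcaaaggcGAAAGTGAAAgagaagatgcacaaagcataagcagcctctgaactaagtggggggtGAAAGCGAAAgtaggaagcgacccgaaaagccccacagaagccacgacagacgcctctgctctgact
Psme1: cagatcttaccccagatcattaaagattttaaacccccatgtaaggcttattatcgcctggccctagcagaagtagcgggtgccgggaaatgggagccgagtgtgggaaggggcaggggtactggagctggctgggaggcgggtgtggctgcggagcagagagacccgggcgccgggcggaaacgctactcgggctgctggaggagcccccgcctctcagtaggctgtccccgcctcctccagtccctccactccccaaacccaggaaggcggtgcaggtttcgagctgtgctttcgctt
Psme2: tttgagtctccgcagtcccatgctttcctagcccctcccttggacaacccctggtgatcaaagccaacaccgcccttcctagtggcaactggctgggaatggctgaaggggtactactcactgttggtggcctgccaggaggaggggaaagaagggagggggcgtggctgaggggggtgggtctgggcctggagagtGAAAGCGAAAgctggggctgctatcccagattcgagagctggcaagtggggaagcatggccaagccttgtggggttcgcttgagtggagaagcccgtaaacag
Psmb5: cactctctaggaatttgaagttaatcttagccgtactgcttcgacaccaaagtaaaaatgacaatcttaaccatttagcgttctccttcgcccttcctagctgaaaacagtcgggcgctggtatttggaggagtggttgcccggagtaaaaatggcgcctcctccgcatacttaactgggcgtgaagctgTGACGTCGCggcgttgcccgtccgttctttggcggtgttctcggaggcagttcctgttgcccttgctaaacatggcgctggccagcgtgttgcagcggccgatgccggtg

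The interferon-stimulated response element core was in 3.92% of 33469 promoter windows of this length. It was in 3 of the 5 inducible windows (Psmb8, Psme2 and, at 2 places, Psmb10), in 2 of 12 core windows, in 1 of 16 regulatory windows and in 1 of 6 of the other group. Psmb8 also held TTCNNNGAA, found in 8.87% of windows. None of the 5 inducible windows held TGACNNNGC, found in 12.1% of windows, whereas 3 of 12 core windows did (Psma3, Psmb2 and Psmb5). A match is a description of letters, and windows without one, such as those of Psmb9 and Psme1, say nothing of sites elsewhere. The starts of Psmb8 and Psmb9 lie 11.969 kb apart on chromosome 20, in the order Tap2, Psmb8, Tap1 and Psmb9 with the peptide transporter genes, and Tap1 starts 457 bases from Psmb9, with a match to the interferon-stimulated response element core 336 bases from the Psmb9 start. The starts of Psme1 and Psme2 lie 13.78 kb apart on chromosome 15.

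The balance of inducible over constitutive catalytic subunit was taken within each array as the log2 signal of one minus that of the other. Only its difference between groups is read, since the 2 probe sets have different affinities. Psmb8 minus Psmb5 averaged -2.40 ± 0.20 in salt-fat kidneys and -3.20 ± 0.27 in normal-diet kidneys at 8 weeks (SD, n = 6), a difference of 0.80 ± 0.14 (SE, 1.74-fold, exact two-sided permutation p = 0.00217, adjusted over 4 tests 0.00866), and every salt-fat array was above every normal-diet array. The p of 0.00217 is the smallest that 6 against 6 arrays can give. Psmb10 minus Psmb7 differed by 0.58 ± 0.15 (exact p = 0.00866, adjusted 0.0173), with overlap. At 2 weeks the same differences were 0.15 ± 0.15 and -0.06 ± 0.14 (adjusted p = 0.462 and 0.695). The differences at 8 weeks largely restate those of Psmb8 (0.83) and Psmb10 (0.64) on the same arrays. Psmb5 and Psmb7 differed by only 0.03 and 0.06, so these tests are no separate support.

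**Figure D2:**
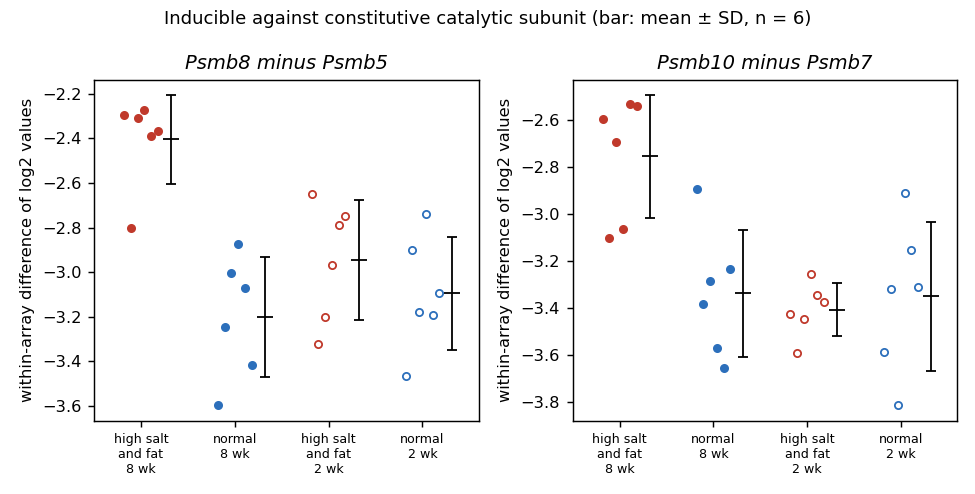
Within-array difference of log2 values, Psmb8 minus Psmb5 and Psmb10 minus Psmb7, for the 4 groups, with points for arrays and bars for mean and SD (n = 6). At 8 weeks the salt-fat arrays lie higher, by 0.80 for Psmb8 minus Psmb5 and 0.58 for Psmb10 minus Psmb7, and at 2 weeks the groups lie together.

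Constitutive core subunits differed little between the diets. At 8 weeks 1 of 13 was called, a share near the 5.63% of all probe sets called higher. It was Psmb4, a structural beta subunit, with signals of 929.1, 985.15 and 1058.8 in salt-fat kidneys against 836.4, 843.8 and 921.5 in normal-diet kidneys. Its groups did not overlap, and its difference was 0.20 ± 0.05 (1.15-fold, adjusted p = 0.0163). The call was lost in 5 of 40 settings, among them the fit without normal-diet arrays 1 and 2 (0.18, adjusted p = 0.0761) and the one without salt-fat array 5 at 8 weeks (0.18, adjusted p = 0.0501). The catalytic subunits Psmb5 and Psmb7 averaged 1014 ± 50.4 and 809 ± 63.9 in salt-fat kidneys at 8 weeks, and 995 ± 96.8 and 774 ± 50.4 in normal-diet kidneys, with differences of 0.03 ± 0.07 and 0.06 ± 0.07 (adjusted p = 0.832 and 0.644).

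The core median was 0.08 at 8 weeks, with 12 of 13 genes above 0 where 49.7% of all probe sets were, and 0.03 at 2 weeks, with 9 of 13 above 0 where 53.4% of all probe sets were. At 2 weeks the core ran between -0.09 (Psmb2) and 0.12 (Psma4), and none of the 13 was called. At 8 weeks the 95% intervals of 12 of the 13 lay within 0.5 of 0 on the log2 scale, the exception being Psma1. Psma1, an outer ring subunit, had signals of 272.4, 347.85 and 436.5 in salt-fat kidneys, against 271, 424.85 and 603.1 in normal-diet kidneys, a difference of -0.27 ± 0.13 (adjusted p = 0.195). Its 2 normal-diet arrays with the highest values were arrays 1 and 2, at 523.9 and 603.1, and without them the difference was -0.06. Without normal-diet array 4 at 8 weeks it was -0.39 and called lower (adjusted p = 0.0264), and leaving out single arrays gave -0.39 to -0.17.

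**Figure D3:**
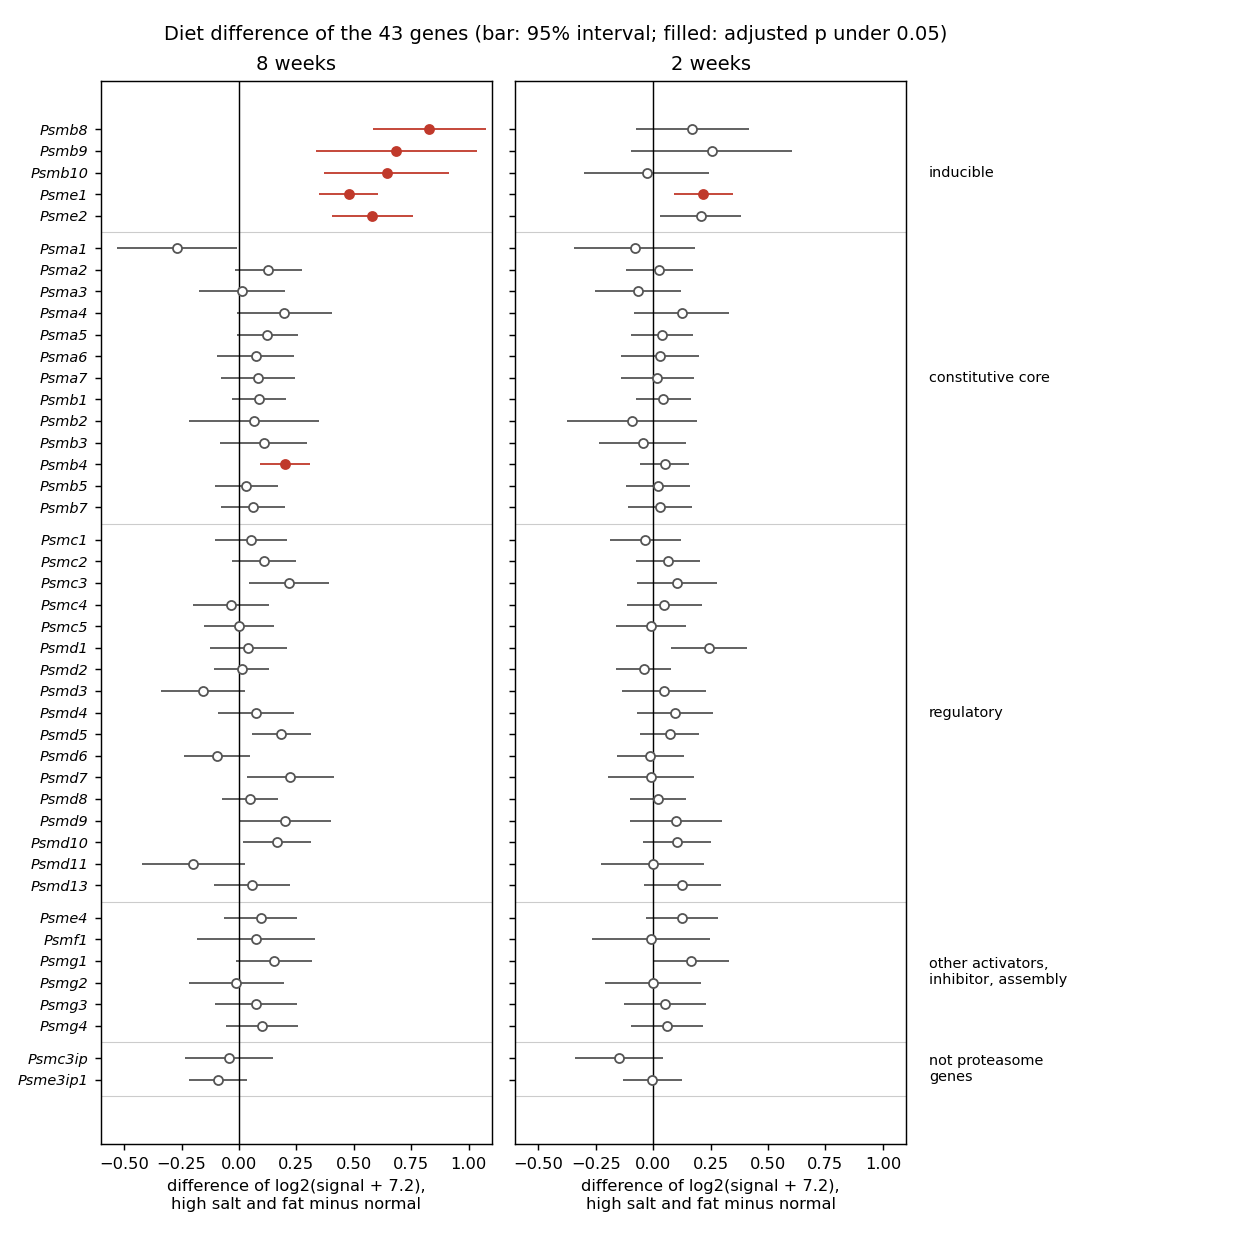
Difference of log2(signal + 7.2), salt-fat minus normal-diet, at 8 and at 2 weeks for the 43 genes ordered by class. Points carry 95% intervals and are filled where the adjusted p was under 0.05, as for 6 genes at 8 weeks and 1 at 2 weeks. The 5 inducible genes lie apart from the rest at 8 weeks, between 0.48 and 0.83.

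No regulatory particle gene was called at either time in the fit of all arrays, although Psmd5 was called higher at 8 weeks without salt-fat array 4 or normal-diet array 3 of that time. Their medians were 0.05 at both, with 13 of 17 genes above 0 at 8 weeks and 11 at 2 weeks, and the intervals of all 17 lay within 0.5 of 0 at both times. At an unadjusted p under 0.05 the count was 5 at 8 weeks (Psmc3, Psmd5, Psmd7, Psmd9 and Psmd10), where 23.7% of all probe sets were, and 1 at 2 weeks (Psmd1), where 22.8% were. The highest at 8 weeks was the lid subunit Psmd7, which pairs with a deubiquitinase in the particle, with signals of 256.1, 298.3 and 331 in salt-fat kidneys against 230.7, 241.75 and 289.9 in normal-diet kidneys, a difference of 0.22 ± 0.09 (adjusted p = 0.131). Psmd1, the base scaffold, was the highest at 2 weeks, with 0.24 ± 0.08 (adjusted p = 0.0577), and differed by 0.04 at 8 weeks. It was called higher at 2 weeks in 7 of 39 alternatives. Among these were array weights (0.25, adjusted p = 0.0271) and the spike-in covariate (0.37, adjusted p = 0.0205). At the low end, Psmd2 differed by -0.04 at 2 weeks.

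Psmd11, a lid subunit, has 2 probe sets, neither called, with diet differences at 8 weeks of -0.20 ± 0.11 and 0.01 ± 0.08. The first had signals of 446.6, 476.1 and 532.4 in salt-fat kidneys, against 434.9, 494.2 and 762.6 in normal-diet kidneys. Normal-diet arrays 1 and 2 held its highest values, 762.6 and 749.5, and without them it differed by 0.03. The other probe set of Psmd11 differed by -0.05 at 2 weeks.

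Among the remaining genes, Psmg1, a chaperone of alpha ring assembly, differed by 0.15 ± 0.08 at 8 weeks (adjusted p = 0.251) and by 0.17 at 2 weeks. Psmg2, its partner, differed by -0.01 at 8 weeks and by -0.0012 at 2 weeks. Psmf1, an inhibitor of the core, differed by 0.07 at 8 weeks and by -0.01 at 2 weeks. The 3 probe sets of the activator Psme4 differed by 0.09, -0.06 and 0.19 at 8 weeks, disagreeing in sign, and by 0.12, 0.06 and 0.06 at 2 weeks. None of these genes was called, and the median of the 6 was 0.08 at 8 weeks and 0.05 at 2 weeks.

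Some pairs of inducible genes varied together across animals of a group. Deviations from group means were pooled over the 24 arrays for 10 pairs of genes, with 100000 shuffles within groups. Psmb10 and Psme1 had Pearson r = 0.61 (permutation p = 0.00031, adjusted over 10 pairs 0.0031) and Spearman rho = 0.66 (permutation p = 0.00049, adjusted 0.0049), and r = 0.64 without the 2 arrays farthest from the median. Psme1 and Psme2 had r = 0.57 (permutation p = 0.00474, adjusted 0.0237) and rho = 0.60 (permutation p = 0.0031, adjusted 0.0155), and r = 0.53 without the 2 arrays farthest from its median. The other 8 pairs did not pass, with r between -0.04 and 0.46. Within groups of 6, all 10 pairs had positive r among the salt-fat arrays at 8 weeks, whereas among the normal-diet arrays at 8 weeks 6 of 10 were negative, down to -0.86 for Psmb9 and Psme1. At 2 weeks 3 of 10 were negative among the salt-fat arrays and 0 of 10 among the normal-diet arrays. These are values with no test. Salt-fat array 2 at 8 weeks had the lowest signal of its group for Psmb8, Psmb9, Psmb10 and Psme1, and the second lowest for Psme2.

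Other genes of the ubiquitin pathway served as a comparison, 27 of 40 of them tested. At 8 weeks limma called 0 of them (2 at an unadjusted p under 0.05), and their median difference was 0.06. At 2 weeks 1 of them was called higher, where 4.55% of all probe sets were. It was the chaperone-linked ubiquitin ligase Stub1 (309 ± 30.1 in salt-fat kidneys and 229 ± 50.1 in normal-diet kidneys, 0.44 ± 0.11, adjusted p = 0.0145). The list's median at 2 weeks was 0.04. Pomp, which assembles the core including its inducible form, differed by 0.10 at 8 weeks (adjusted p = 0.292). The regulators Nfe2l1 and Nfe2l2 differed by 0.02 and 0.08 (adjusted p = 0.945 and 0.658).

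Class I presentation genes held 13 tested of 18 and 3 were higher at 8 weeks: Tap2, which pumps peptides into the endoplasmic reticulum (0.74 ± 0.14, adjusted p = 0.000758), Pdia3, a chaperone of the loading complex (0.28 ± 0.08, adjusted p = 0.0283), and RT1-M3-1, a class I gene (0.36 ± 0.11, adjusted p = 0.0362). Their list's median was 0.16. Over all probe sets, 5.63% were called higher at 8 weeks, and 4.55% higher and 4.19% lower at 2 weeks. At 2 weeks RT1-CE16 and RT1-T24-4 were higher (0.42 and 0.71) and B2m, the light chain, was lower (-0.26 ± 0.07, adjusted p = 0.0144), with a median of -0.09. Rat class I genes are alike in sequence, so which of them a probe set reads is uncertain. Tap1 lay below the filter.

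Of the interferon response genes, 15 of 31 were tested, 3 of which were higher at 8 weeks: Bst2, which tethers virus particles (0.74 ± 0.14, adjusted p = 0.00127), Ifitm3 (0.49 ± 0.08, adjusted p = 0.000231) and Ifi27 (0.47 ± 0.12, adjusted p = 0.0166). Their list's median was 0.21 at 8 weeks and -0.02 at 2 weeks, where 0 were called by limma (1 at an unadjusted p under 0.05). The share of all probe sets called higher at 8 weeks was 5.63%, and the share called lower at 2 weeks was 4.19%. Irf1, which drives several of these genes, differed by 0.13 ± 0.17 at 8 weeks (adjusted p = 0.694). Of 9 class II genes, RT1-Db1, RT1-Da and the protease Ctss were higher at 8 weeks (0.65, 0.54 and 0.49), and RT1-Da was lower at 2 weeks (-0.35, adjusted p = 0.0472), with list medians of 0.31 at 8 weeks and -0.12 at 2 weeks.

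Leukocyte markers were also higher at 8 weeks. Of 18 tested of 34, 7 were higher at 8 weeks, led by C1qa (0.57 ± 0.09, adjusted p = 7.03e-05), Cd68, a macrophage lysosomal protein (0.90 ± 0.14, adjusted p = 0.000106), Laptm5 (0.73 ± 0.15, adjusted p = 0.00193) and Lyz2 (0.32 ± 0.08, adjusted p = 0.00966), and 0 were lower, with a median of 0.33. At 2 weeks 0 were higher and 1 was lower, Cd4 (-0.40), with a median of -0.08. The shares over all probe sets were 5.63% higher at 8 weeks and 4.19% lower at 2 weeks. The summed signal of the 29 markers on the array was 4704 to 6263 in salt-fat kidneys at 8 weeks, against 3907 to 4589 in normal-diet kidneys, and 3834 to 4527 in salt-fat kidneys at 2 weeks, against 4261 to 4833 in normal-diet kidneys. None of the 29 was listed at 0 on any array. By array the sum and the inducible genes had like ranks on some arrays and unlike ranks on others. Among salt-fat arrays at 8 weeks, array 2, lowest for 4 of the inducible genes, had the lowest sum and array 5, highest for 3 of them, the highest. Array 1, the first or second for all 5, had the fourth sum, and array 6, in the top 2 for none, had the second. Among salt-fat arrays at 2 weeks, array 5, in the top 2 for all 5, had the fourth sum, and array 4, in the top 2 for none, had the highest. Among normal-diet arrays at 2 weeks, array 4, highest for all 5, also had the highest sum, 4833. Array 1 of that group, in the top 2 for none, came next with 4811. Among normal-diet arrays at 8 weeks, array 3 had the highest sum, 4589. It was highest for Psmb8 and Psme2 and second lowest for Psmb9. Array 4 of that group had the second sum, and was highest for Psmb9 and lowest for Psmb10, Psme1 and Psme2. These ranks are a description with no test. Ptprc and Cd3e lay below the filter, with Ptprc at 49.7 ± 13.6 and 41.2 ± 12 and Cd3e at 18.4 ± 9.86 and 16.5 ± 10.4 in salt-fat and normal-diet kidneys at 8 weeks. At 8 weeks leukocyte markers and inducible genes were both higher. At 2 weeks the median of the markers lay below 0. Of the 5 inducible genes 4 lay above 0 at that time, where 53.4% of all probe sets did. Only Psme1 of them was called in the fit of all arrays. The markers' part in the result was not tested. Of the nephron markers, 6 of 18 proximal tubule genes were lower and 0 higher at 8 weeks (9 lower and 0 higher at 2 weeks). Of 13 distal and collecting duct genes, 4 were higher and 1 lower at 8 weeks (7 higher and 1 lower at 2 weeks). Over all probe sets, 5.63% were called higher and 3.51% lower at 8 weeks (4.55% and 4.19% at 2 weeks). The part of the nephron markers was not tested either. Of 5 fat tissue markers tested, all 5 were lower at 2 weeks and 0 were called at 8 weeks (0 at an unadjusted p under 0.05). Summed signals of the 7 on the array were 162.4 to 343.5 in salt-fat kidneys at 2 weeks, against 391 to 4053 in normal-diet kidneys. At 8 weeks they were 446 to 821 in salt-fat kidneys and, unevenly, 147 to 3610 in normal-diet kidneys. Their part in the differences at either time, that of Psme1 at 2 weeks included, was not tested.

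**Figure D4:**
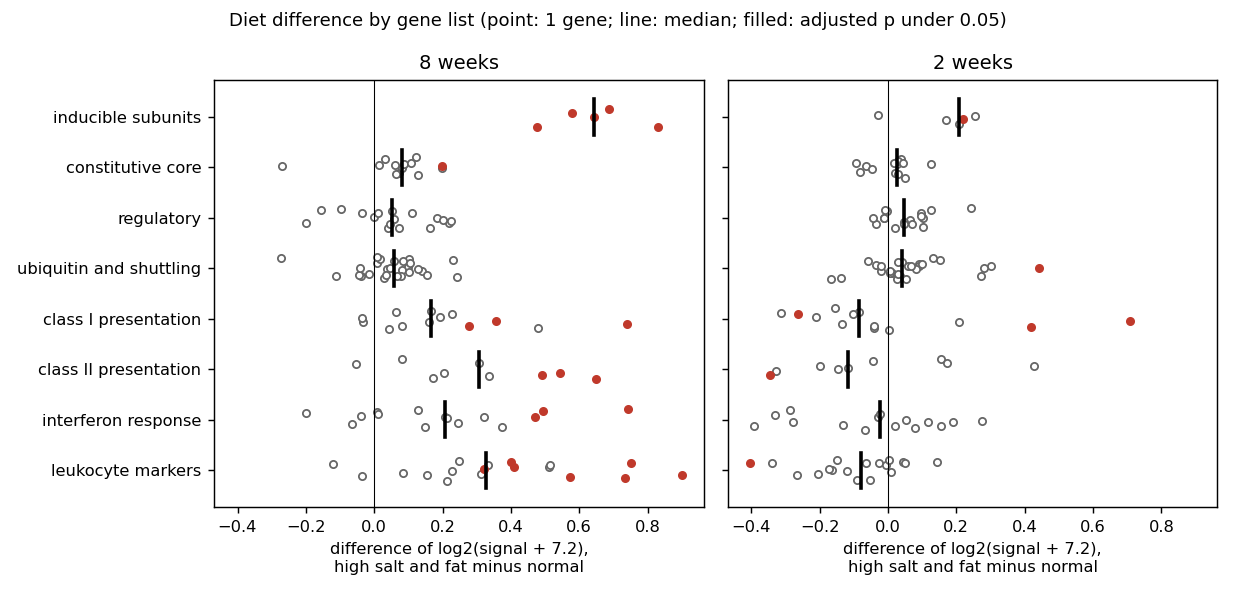
Differences of log2(signal + 7.2), salt-fat minus normal-diet, for each tested gene of the proteasome classes and of the comparison lists at 8 and at 2 weeks. Each point is 1 gene, filled where the adjusted p was under 0.05, and the line marks the list's median. The medians at 8 weeks were 0.64 for the inducible genes, 0.33 for leukocyte markers and 0.06 for the ubiquitin pathway.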

How the data were processed

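The authors deposited a linear signal for each probe set and array, an intensity computed with MAS5 according to the submitters' processing notes; its version and scaling target are not given in the sources used here. Values were analysed as log2(signal + 7.2) and not normalized again; the 7.2 added is 0.1 of the typical array median. Of 15923 probe sets, 57 controls were left out, and 10208 above the 40th percentile in at least 6 of 24 arrays were tested. Symbols are those of the platform's annotation, and only probe sets with 1 symbol were named. For genes with several probe sets, the brightest on average stands for the gene.

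All arrays entered 1 linear model of group means (limma 3.58.1 in R 4.3.3, eBayes with trend), for 5 comparisons, two-sided, with Benjamini-Hochberg adjustment over all probe sets tested. Ratios of catalytic subunits were compared with exact permutation tests, adjusted over 4 tests, because Psmb6 had no probe set of its own. Named members were those called anywhere, the inducible and catalytic subunits, and each class's extremes in each diet comparison. Other genes were up to 4 called members of smallest p per list, those against the majority, and preset regulators. Genes and lists were chosen with earlier results of these data known. Promoters came from RefSeq (GRCr8). The fit was tested on simulated data. Alternatives were other pseudocounts, normalizations, filters, eBayes settings, covariates and omitted arrays.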

Additional observations from a re-analysis of the deposited data

Results flagged for a closer look

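Among 18 named members examined in 4 groups each (72 groups), 5 had 1 array far from the other 5, where chance gives about 1 in 20. Psmb8 was 127.8 on array 2 of the salt-fat kidneys at 8 weeks, against 193.7 to 206 on the others. Psmb2 was 300.9 on array 5 of the salt-fat kidneys at 2 weeks, against 531.6 to 630.3 on the others. Psmb4 was 921.5 on normal-diet array 6 at 8 weeks, with the next at 864.3. On the normal diet at 2 weeks, Psme1 was 825.5 on array 4, with the next at 750.2, and Psmb7 was 914.2 on array 6, with the next at 811.2.

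For 7 genes of the comparison lists the limma interaction term, the salt-fat minus normal-diet difference at 8 weeks minus that at 2 weeks on the log2 scale, was above 0 and called. All 7 had differences above 0 at 8 weeks and below 0 at 2 weeks, so a positive term need not mean a difference of larger size. For B2m the size was smaller at 8 weeks, with 0.16 (adjusted p = 0.146) against -0.26 at 2 weeks (adjusted p = 0.0144). For Tap2 it was larger at 8 weeks, with 0.74 against -0.13. RT1-Da differed by 0.54 at 8 weeks and -0.35 at 2 weeks, both called. The terms of antigen presentation genes were B2m (0.42 ± 0.10, adjusted p = 0.0429), Tap2 (0.87 ± 0.19, adjusted p = 0.033) and RT1-Da (0.89 ± 0.16, adjusted p = 0.00871). Bst2, an interferon response gene, had a term of 1.03 ± 0.20 (adjusted p = 0.0165). The terms of leukocyte markers were Cd68 (1.05 ± 0.20, adjusted p = 0.0155), Lyz2 (0.52 ± 0.11, adjusted p = 0.0241) and C1qa (0.62 ± 0.12, adjusted p = 0.0165). No proteasome gene was called by that term.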

How the results depend on the processing

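All 5 inducible genes were called at 8 weeks in 39 of 40 settings; the exception, a filter above the array median in 12 arrays, did not test Psmb9. The count of proteasome genes called at 8 weeks ran from 5 to 7, with 5 to 7 when single arrays were left out. At 2 weeks the count was 0 with arrays centred on their medians and 0 with the GAPDH ratio as a covariate, 2 with array weights and 2 without normal-diet arrays 1 and 2 at 8 weeks (Psmd1 and Psme1), and 0 to 2 when single arrays were left out. Without normal-diet array 4 at 2 weeks the 2 called were Psme1 and Psme2. For time in salt-fat kidneys the count was 2 to 3, with 3 under array weights. With the spike-in covariate Psmd1 (0.37, adjusted p = 0.0205) took the place of Psme1. For the interaction, leaving out single arrays gave 0 to 1. The sample labels name no pairing by replicate number. Same-numbered arrays of different groups correlated at -0.10 to 0.16, with 3 of 6 over 0.1 between salt-fat arrays at 8 and 2 weeks. Such correlations cannot exclude a pairing. With the replicate number as a block the counts were 1 at 2 weeks and 6 at 8 weeks. The differences of 0.80 (Psmb8 minus Psmb5) and 0.58 (Psmb10 minus Psmb7) then had an adjusted exact p of 0.0625, where 0.03125 is the smallest unadjusted p that 6 pairs allow.

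Small differences changed sign, and the cause was not tested. At 2 weeks, array weights gave Psmd11 0.0093 and Psmf1 0.046. At 2 weeks the spike-in covariate gave Psmd2 0.0399, Psmd7 0.0171 and Psmg2 0.0497. The GAPDH covariate gave Psmb10 0.0361, Psmb7 -0.0414, Psma1 0.0469, Psmd11 0.1116 and Psmf1 0.119 at that time. At 8 weeks, array weights gave Psmg2 0.0272, and the spike-in covariate gave Psmd1 -0.055 and Psmd2 -0.0519. Without normal-diet arrays 1 and 2, Psmd1 was -0.0237, Psmd2 -0.0139, Psmd11 0.0304 and Psmf1 -0.0258 at 8 weeks. Leaving out single arrays at 2 weeks gave ranges of -0.12 to 0.0489 for Psmb10, -0.15 to 0.0627 for Psmb2, -0.0247 to 0.0456 for Psmb5, -0.0088 to 0.0728 for Psmb7, -0.0331 to 0.0346 for Psmd11, -0.0616 to 0.0633 for Psmd7, -0.0598 to 0.0568 for Psmf1, -0.077 to 0.0405 for Psmg2 and -0.15 to 0.0308 for Psmb10 minus Psmb7. At 8 weeks the ranges were -0.0037 to 0.17 for Psmb2, -0.0226 to 0.0643 for Psmb5, -0.0061 to 0.0259 for Psmd2 and -0.0723 to 0.0291 for Psmg2.

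The arrays measure whole-kidney RNA of 6 animals per group, without detection calls here, so small differences such as those of the core and regulatory genes are bounded by their intervals and not shown to be 0.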

Other observations

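Outside the inducible genes, 4 members held the interferon-stimulated response element core in their promoter window: Psma4, Psmb3, Psmd7 and Psmg4. At 8 weeks all 4 lay above 0 on the log2 scale, with a median difference of 0.15, beside 0.07 for the 38 members that are not inducible, of which 30 lay above 0. The 38 are not a set without the motif. They include these 4, Psma7 and Psmd6, which had no window, and Psmc3ip and Psme3ip1, which are not subunits. Psmd7 (0.22 ± 0.09, adjusted p = 0.131) was the highest of the 38, and Psma4 (0.20 ± 0.10, adjusted p = 0.231), Psmb3 (0.11 ± 0.09, adjusted p = 0.519) and Psmg4 (0.10 ± 0.08, adjusted p = 0.47) were not called either. The 7 members with the antioxidant response element core TGACNNNGC had a median of 0.04 and ran between -0.16 (Psmd3) and 0.20 (Psmd9). Of the 2 with the gamma-activated site core TTCNNNGAA, Psmd7 lay at 0.22 and Psmd3 at -0.16, a median of 0.03. This grouping was made after the values were seen and is a description with no test.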
